A study of Homo sapiens with 4 samples.

Results

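The angiogenic ligands and receptors described here are 8 genes, VEGFA, PGF, ANGPT2, PDGFA, FLT4, TEK, PDGFRA and THBS2, each found by its symbol or an older symbol (VEGF for VEGFA) in the name column of a 2-colour cancer oligonucleotide array. They were printed as 16 spots, 2 for each gene, among 3786 gene spots that make up 1856 gene probes. All 8 genes were measured above the local background in every sample. The samples are MDA-MB-231 cells, an established human line of triple-negative breast adenocarcinoma, grown in RPMI medium with serum and either left untreated or given recombinant human LRG1 (rhLRG1) at 100 ng/mL, with RNA taken after 24 h. LRG1, leucine-rich alpha-2-glycoprotein 1, is a secreted glycoprotein that has been linked to vessel growth, and the study asked how it changes the transcripts of these tumour cells. Replicates 2 and 3 of each condition were analysed here, and the untreated and treated culture of one number shared an array. Untreated RNA carried Alexa 555 and rhLRG1 RNA Alexa 647 on both arrays, so dye and treatment cannot be told apart in these ratios. The cells are 1 line cultured alone, with no endothelial cells on which the ligands would act.

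Vessel growth is driven by secreted ligands that tumour cells release and by receptor tyrosine kinases that lie mostly on endothelial cells and on the mural cells around them. VEGFA is the central growth factor for endothelial cells and PGF, placental growth factor, is its relative that binds the receptor FLT1. FLT4 is the receptor of the lymphatic growth factors VEGFC and VEGFD. ANGPT2 binds the endothelial receptor TEK (also named TIE2) and in many settings opposes its activation by ANGPT1, which loosens the vessel wall. PDGFA signals through PDGFRA, a receptor of mesenchymal cells. THBS2, thrombospondin 2, is a secreted matrix protein that restrains vessel growth through receptors such as CD36 and CD47.

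After rhLRG1 all 4 ligands had mean ratios above 0, although PGF and ANGPT2 were below 0 with median centring and VEGFA with the net intensities. The receptors were divided, with FLT4 above 0 and TEK and PDGFRA below. The changes were small. FLT4 was 1.16-fold higher (95% interval 1.07 to 1.27, n = 2 arrays), ANGPT2 was 1.14-fold higher (1.05 to 1.25), and PDGFRA stood at 0.822 times its untreated level (0.752 to 0.897). These 3 genes passed the replicated test: limma on the log2 ratio of treated over untreated cells, adjusted by Benjamini-Hochberg over all gene probes. VEGFA, PGF, PDGFA, TEK and THBS2 did not pass it. Of all probes the same test called 10.8% higher and 10.9% lower. With the 2 left-out spots described below kept, it called 0 probes. VEGFA alone passed the other rule, a Z ratio beyond the 1.5 that the study's methods set, at a brightness where every probe passed it. With the deposited net intensities in place of the scanned values that rule called ANGPT2 higher and not VEGFA.

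Some facts of the arrays bear on each of these values. Intensity is the scanner's brightness on an arbitrary linear scale. The median gene spot was 11.8 and 8.72 times its local background in the untreated samples of replicates 2 and 3, and 5.69 and 4.57 times in the rhLRG1 samples. Before normalization the median log2 ratio of treated over untreated was -0.42 and -0.48 on the arrays, so each ratio below is relative to the other probes of equal brightness. The ratios of the arrays correlated across probes, which are not independent replicates, at a Pearson r of 0.769. On replicate 3, 1 spot each of the genes named RAI3 and IFNG had a foreground below its local background. Both were left out before background correction, a choice made after the data were seen. The reason was that with them the fitted background noise reached 195 in the untreated channel, where the measured SD was 1.57. Without them the fitted noise there was 0.00065, so that fit lay far from the measured SD too, on the low side. With both kept, limma passed 0 of 1856 probes and 0 of the 8 genes (smallest adjusted p 0.124, 433 probes at an unadjusted p under 0.05). Of the markers of MDA-MB-231 on the array, VIM, CD44, EGFR and AXL were 3.71 to 314 times their background. The luminal markers ERBB2 and PGR, genes of receptor proteins that triple-negative cancers lack, were at 19.2 to 43.3 and 1.47 to 5.20 times theirs. EPCAM and KRT19, the other luminal markers on the array, were at 35.1 to 74.5 and 2.32 to 6.27 times. Whether a signal above background means here that a gene is expressed was not tested.

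VEGFA was the dimmest of the 8 genes. In the untreated cells its spots read 57.8 and 47.1 on replicate 2 and 62.5 and 52.9 on replicate 3, against local backgrounds between 42.0 and 47.0. In the rhLRG1 cells they read 76.5 and 75.9 on replicate 2 and 79.9 and 73.8 on replicate 3, against backgrounds between 69.3 and 72.8. The foreground was thus 1.12 to 1.33 times the background in untreated cells and 1.07 to 1.10 times in treated ones, and the treated spots lay only 2.56 to 3.24 background SDs above it. Most of every reading was background.

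After normalization the VEGFA spots had log2 ratios of 0.17 and 0.28 on replicate 2 and 0.14 and 0.17 on replicate 3. All 4 were above 0. The mean was 0.19 (SE 0.050, n = 2 arrays, limma adjusted p 0.054), which did not pass. Its Z ratio was 3.58, the only one of the 8 genes beyond 1.5, where 4.74% of all probes were called higher by that rule and 6.95% lower. VEGFA lay at percentile 0.916 of brightness, among the 18 dimmest probes (the dimmest 1%), and of those 18 probes all 18 had a Z ratio above 1.5 and all 18 had a mean log2 ratio above 0. Their median log2 ratio was 0.20 and their median Z ratio 3.83, so VEGFA stood within the range of probes of its own brightness.

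The direction of VEGFA also turned with the processing. VEGFA was called higher by limma with plain subtraction (0.91, adjusted p 0.00448), median centring (0.37, 0.00225), duplicate spots kept apart (0.19, 0.0130) and no background correction (0.18, 0.0463). It was called lower with the deposited net intensities, at -0.23 (limma adjusted p 0.0380), where its Z ratio was -0.78. Without normalization between the dyes it was -0.07, which did not pass. With Z scores taken after loess, VEGFA fell short of the threshold at 1.11.

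**Figure D1:**
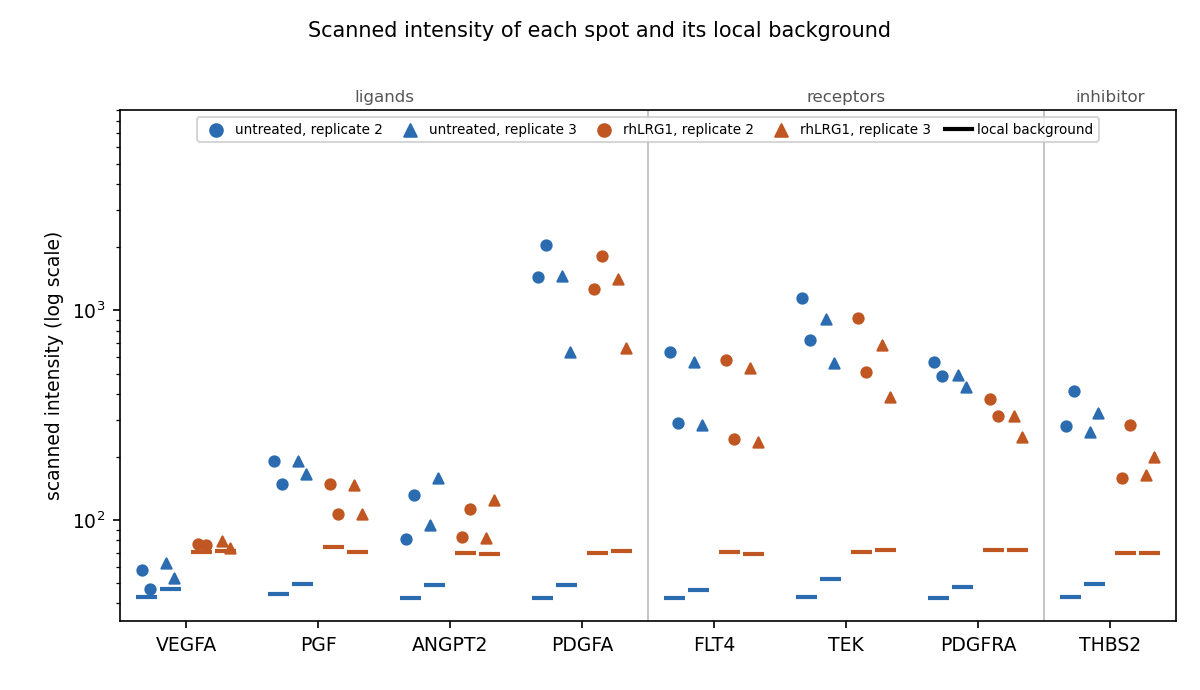
Scanned intensity (log scale, arbitrary units) of each of the 2 spots of the 8 genes in the untreated (blue) and rhLRG1 (orange) samples, with circles for replicate 2, triangles for replicate 3, and bars for the mean local background of the 2 spots. VEGFA sits on its background in the treated channel, at 1.07 to 1.10 times it, and PDGFA is the brightest probe, with 1 spot of replicate 3 far below the other 3 readings of its channel.

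PGF was brighter, at 3.22 to 4.49 times background in the untreated samples and 1.39 to 2.09 times in the rhLRG1 samples. Its first spot gave log2 ratios of 0.20 on replicate 2 and 0.30 on replicate 3, and its second spot -0.05 and 0.05. The spots of one probe thus differed by more than the arrays did. The mean was 0.13 (SE 0.053, limma adjusted p 0.158), with a 95% interval from -0.01 to 0.26, and the Z ratio was -0.03. PGF received the largest loess correction of the 8 genes, 0.86 on replicate 2 and 0.95 on replicate 3, and lay near the brightness at which probes had the lowest ratios before normalization. With median centring in place of loess PGF was lower, at -0.34 (limma adjusted p 0.00363), and with the net intensities it was higher, at 0.40 (limma adjusted p 0.000224).

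ANGPT2 was read at 80.9 and 132 on the 2 spots of the untreated sample of replicate 2 and at 94.3 and 158 on those of replicate 3. In the rhLRG1 samples it was read at 83.1 and 112 on replicate 2 and at 81.9 and 125 on replicate 3. The first spot lay at 1.18 to 1.20 times its background in the treated channel and the second at 1.60 to 1.82 times. Log2 ratios of the first spot were 0.08 on replicate 2 and -0.00028 on replicate 3, and those of the second were 0.28 and 0.42. The change thus came from the second spot, whose mean was 0.39 against 0.06 for the first.

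Over both spots the arrays gave ANGPT2 log2 ratios of 0.18 and 0.21 and a mean of 0.19 (SE 0.049, limma adjusted p 0.048). ANGPT2 rose by this test, where 10.8% of all probes were called higher and 10.9% lower. It lay at percentile 4.63 of brightness, among the 92 dimmest probes (the dimmest 5%), of which limma called 23 higher and 11 lower. In either direction limma called 38.8% of the 619 dimmest probes against 8.72% of the 619 brightest. The call was lost with a robust variance model (adjusted p 0.050), with duplicate spots kept apart (0.0903) and with no background correction (0.0779). It was kept, with larger ratios, with the net intensities (0.60, adjusted p 4.70e-06), plain subtraction (0.51, 0.00625) and print-tip loess (0.32, 0.00704). With median centring the mean was -0.11 and did not pass (limma adjusted p 0.135). The Z ratio, at 1.18, did not pass as computed here and did with the net intensities, at 2.18.

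PDGFA was the brightest of the 8, at percentile 80.2. The untreated cells of replicate 2 read 1441 and 2045, and those of replicate 3 read 1457 and 633. The rhLRG1 cells of replicate 2 read 1265 and 1812, and those of replicate 3 read 1415 and 659. The second spot of replicate 3 was thus dim in both channels alike. That spot had a log2 ratio of 0.35, against 0.13 for the first spot of the same array and 0.03 and 0.00038 for the spots of replicate 2. The mean of PDGFA was 0.13 (SE 0.070, 95% interval -0.05 to 0.31, limma adjusted p 0.250), and replicate 2 alone gave 0.01.

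**Figure D2:**
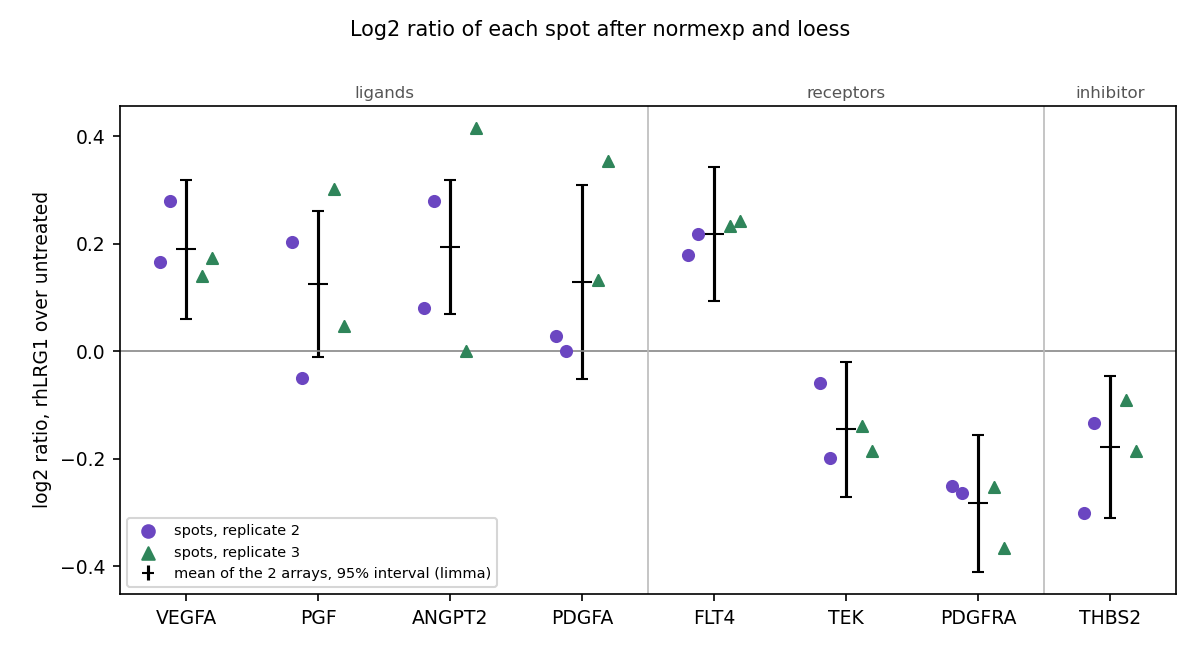
Log2 ratio of rhLRG1 over untreated cells for each spot of the 8 genes (purple circles for replicate 2, green triangles for replicate 3) after normexp and loess, with the mean of the 2 arrays and its 95% interval from limma in black. The 4 spots of FLT4 lie between 0.18 and 0.24 and those of PDGFRA between -0.37 and -0.25, while the spots of PGF, ANGPT2 and PDGFA reach 0 or near it.

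Among the genes that rose, FLT4 gave the most even log2 ratios across its spots, although the spots themselves differed in brightness. Its first spot read 632 and 569 in the untreated samples of replicates 2 and 3 and 577 and 534 in the rhLRG1 samples. Its second spot read 289.5 and 284 in the untreated samples and 243 and 235 in the rhLRG1 samples. Treated readings were lower on every spot, but by less than the loess curve at that brightness, with corrections of 0.50 and 0.52. The 4 log2 ratios were 0.18 and 0.22 on replicate 2 and 0.23 and 0.24 on replicate 3, with no spot near 0.

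The mean log2 ratio of FLT4 was 0.22 (SE 0.049, limma adjusted p 0.037), and FLT4 passed together with ANGPT2 in the upward direction, 2 of 8 genes beside the 10.8% of all probes. The Z ratio was 1.02. FLT4 also passed with the net intensities, with plain subtraction and with print-tip loess, at log2 ratios of 0.22, 0.26 and 0.19. It fell short with median centring, at 0.15 (limma adjusted p 0.0687). Without any normalization it was called lower, at -0.29. Its ligand genes VEGFC and VEGFD were not among the named probes used here.

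TEK lay at 10.9 to 26.6 times background in the untreated samples and at 5.30 to 13.2 times in the rhLRG1 samples. Its spots gave log2 ratios of -0.06 and -0.20 on replicate 2 and -0.14 and -0.19 on replicate 3, all below 0. The mean was -0.15 (SE 0.049, 95% interval -0.27 to -0.02), and the limma adjusted p of 0.0944 did not pass. TEK kept its sign in all 15 alternative settings, at -0.05 with median centring and -0.49 without normalization. Among these, no replicate block, a robust variance model, duplicate spots kept apart and a filter on dim probes leave the mean unchanged.

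PDGFRA had the largest ratio in size of the 8 genes. Its 2 spots read 566.5 and 487 in untreated cells on replicate 2, while replicate 3 gave 489.6 and 429.7. In the rhLRG1 cells they read 378 and 314 on replicate 2, and 315 and 249 on replicate 3. Every treated reading was below every untreated one, although the channels differ in dye and background. Log2 ratios were -0.25 and -0.26 on replicate 2 and -0.25 and -0.37 on replicate 3.

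The mean of PDGFRA was -0.28 (SE 0.050, limma adjusted p 0.020), and PDGFRA was the 1 gene of 8 called lower, beside 10.9% of all probes. The Z ratio was -0.93. PDGFRA kept this direction in all 15 alternatives, counting those named for TEK that leave the mean unchanged. It passed in 9 of the 11 that could be tested. The exceptions were the fit without the replicate block and the fit with both below-background spots kept (limma adjusted p 0.143). PDGFRA was at -0.34 with median centring and -0.31 with the net intensities. FLT4 and PDGFRA lay at almost the same brightness, percentiles 48.3 and 48.2, and received nearly equal loess corrections. Before loess both were below 0, FLT4 at -0.31 and -0.28 and PDGFRA at -0.72 and -0.84 on replicates 2 and 3. Only after loess did their ratios have opposite signs.

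THBS2, the inhibitor, read 282 and 413 in untreated cells on replicate 2 and 263 and 324 on replicate 3. In the rhLRG1 cells it read 159 and 284 on replicate 2 and 164 and 199 on replicate 3. Log2 ratios were -0.30 and -0.13 on replicate 2 and -0.09 and -0.19 on replicate 3. All 4 were below 0, and the mean was -0.18 (SE 0.051, 95% interval -0.31 to -0.05, limma adjusted p 0.0654), which did not pass. The net intensities gave THBS2 0.07, and median centring gave -0.42 (limma adjusted p 0.00158).

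**Figure D3:**
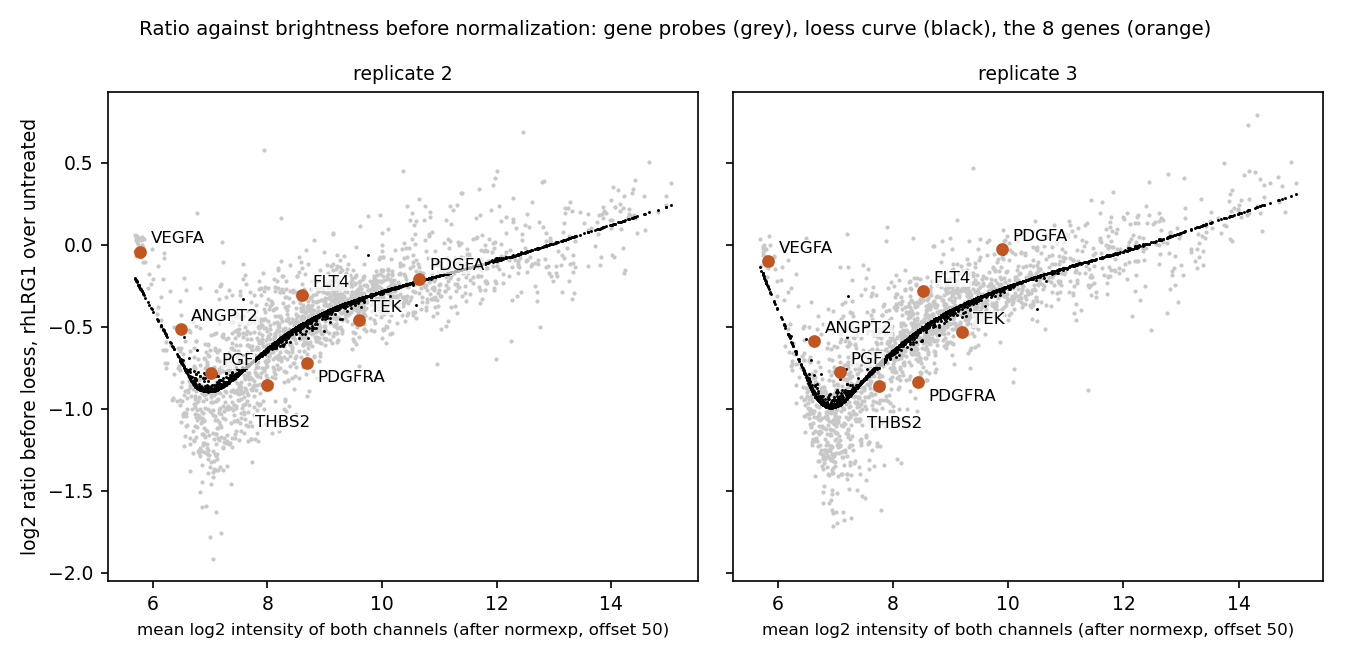
Log2 ratio of rhLRG1 over untreated cells before loess (y) against mean log2 intensity of both channels after normexp with an offset of 50 (x) for all gene probes (grey), the loess curve (black) and the 8 genes (orange) on each array. The curve falls to its lowest near PGF and climbs steeply toward the dimmest probes, where VEGFA and a small group of neighbours lie above it.

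Set side by side by role, the 4 ligands had a median log2 ratio of 0.13 on replicate 2 and 0.19 on replicate 3, with all 4 means between 0.13 and 0.19 as normalized by loess. The 3 receptors had medians of -0.13 and -0.16, with 1 of 3 above 0 and means from -0.28 to 0.22. Over all probes the medians were -0.01 and -0.01, and 48.1% of probes had a mean above 0. All 8 genes had the same sign on both arrays, as did 75.4% of all probes. The median size of the mean ratio was 0.18 over the 8 genes and 0.10 over all probes. At an unadjusted p under 0.05 limma took 6 of the 8 genes, where it took 37% of all probes. These are counts over 8 chosen genes and carry no test.

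For the ligands whose own receptor is among the genes, the difference within an array can be given directly. ANGPT2 stood 0.31 above TEK in log2 ratio on replicate 2 and 0.37 on replicate 3. PDGFA stood 0.27 above PDGFRA on replicate 2 and 0.55 on replicate 3, where the dim second spot of PDGFA enters. In both pairs the ligand was the higher on both arrays. With median centring ANGPT2 (-0.11) was the lower of its pair, TEK standing at -0.05.

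**Figure D4:**
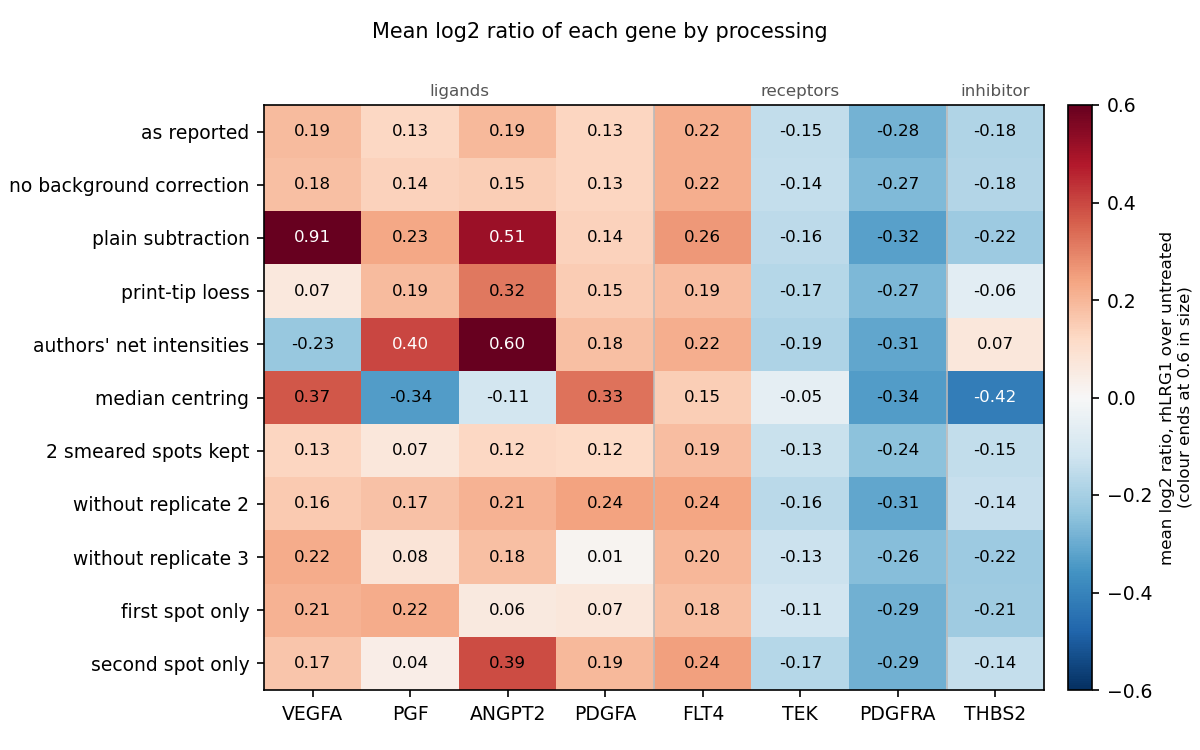
Mean log2 ratio of rhLRG1 over untreated cells of the 8 genes (columns) under 11 ways of processing the same arrays (y), with red above 0 and blue below and colours ending at 0.6 in size. In the settings shown PDGFA and FLT4 stay above 0, though both are below it with no normalization (not shown), and TEK and PDGFRA stay below it, whereas VEGFA, PGF, ANGPT2 and THBS2 each change sign in at least 1 setting shown.

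Other genes of the pathway were counted by role. Of 19 other ligands 6 were on the array, with 8 probes, and limma called 0 of them, with 3 probes above 0 and 5 below. The largest gene means were those of CXCL8, a chemokine that attracts neutrophils and stimulates vessel growth, at 0.07, and PDGFB, the growth factor that recruits pericytes, at -0.05, and with median centring both turned sign, to -0.41 and 0.11. The probes of HGF, a ligand of the receptor MET, disagreed, at 0.15, -0.07 and -0.13. VEGFB, FGF2 and TGFB1 lay within 0.03 of 0 as normalized by loess. With median centring these 3 were at 0.08, 0.33 and -0.38, and with the net intensities at -0.02, 0.06 and 0.27.

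Of 18 other receptors 8 were on the array, and limma called 2 higher and 0 lower, beside 10.8% and 10.9% of all probes. ACVRL1, an endothelial receptor of the TGF-beta family, rose by 0.27 (SE 0.049, limma adjusted p 0.022), with 0.25 and 0.29 on the arrays. EPHB4, the receptor of ephrin-B2 that marks veins, rose by 0.27 (SE 0.061, limma adjusted p 0.0401), with 0.35 and 0.18. Both kept this direction with median centring, at 0.44 and 0.50, and with the net intensities, at 0.24 and 0.19. The others, TIE1, NOTCH4, ENG, FGFR1, CD47 and FGFR2, lay between -0.13 and 0.04 and did not pass. TIE1, the partner of TEK, was at -0.13 (limma adjusted p 0.135), and at 0.15 with the net intensities. CD47, a receptor of thrombospondins, was at 0.03, or -0.35 with median centring.

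Among 13 other inhibitors and matrix proteins 5 were on the array, 4 with means above 0 (3 with median centring), and limma called 0 of the 5. TIMP3, a metalloproteinase inhibitor that also blocks VEGF binding to its receptor, was at 0.21 (limma adjusted p 0.0733), and TIMP1, another inhibitor of metalloproteinases, was at 0.15 (0.119), or -0.12 with median centring. Among 9 regulators 8 were on the array and 0 passed. VHL, which targets hypoxia-inducible factors for degradation, was at 0.17 (limma adjusted p 0.0695), and HIF1A, the hypoxia-inducible subunit itself, at 0.13 (0.148). With median centring VHL was at -0.00031 and HIF1A at 0.33. No gene of these 4 lists had a Z ratio beyond 1.5. The reference genes ACTB and GAPDH were at -0.02 and -0.11, ACTB turning to 0.10 with median centring.

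**Figure D5:**
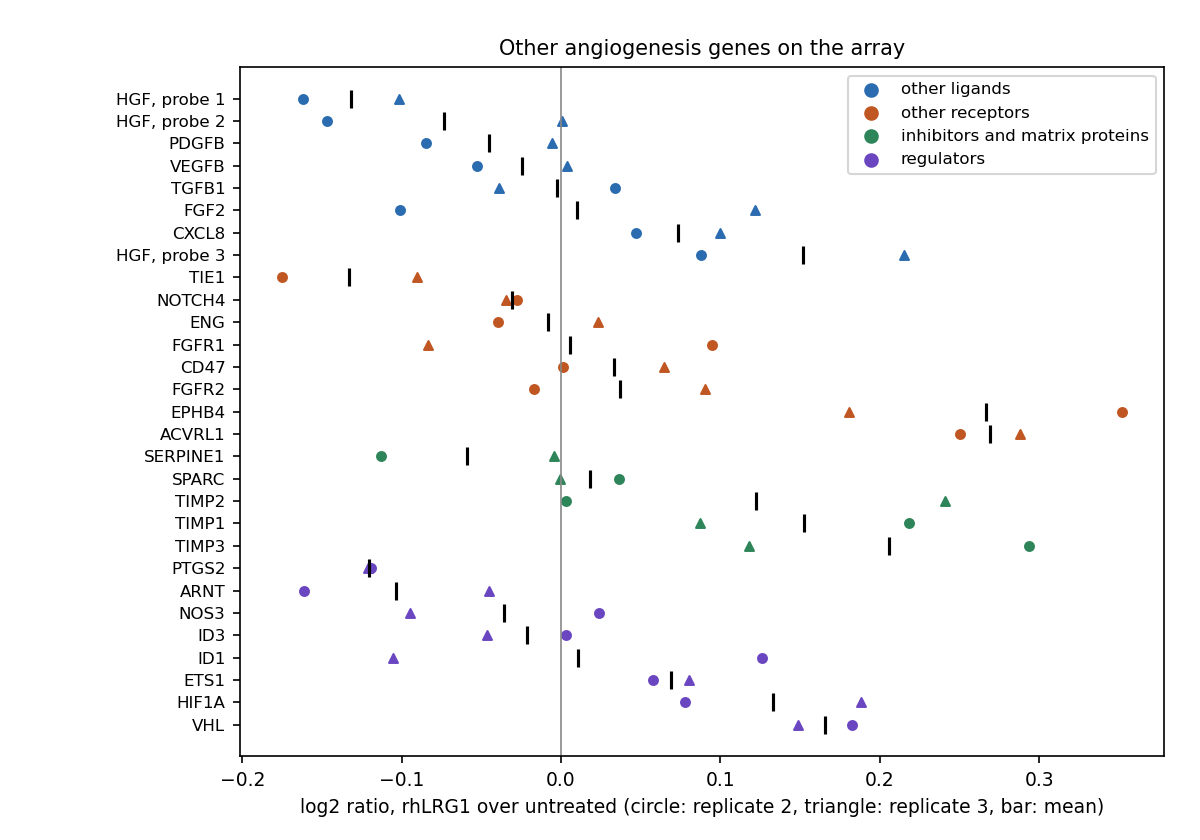
Log2 ratio of rhLRG1 over untreated cells (x) for the other ligands, receptors, inhibitors and regulators on the array (y), with circles for replicate 2, triangles for replicate 3 and bars for the mean. ACVRL1 and EPHB4, both at 0.27, stand apart from the other receptors, and most genes span 0 or lie near it.

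Markers of other cell types were set beside the receptors, since TEK is an endothelial gene and PDGFRA a mesenchymal one. Of 9 endothelial markers 5 were on the array, all 5 with a mean below 0, though ICAM2 and MCAM were above it with median centring (0.38 and 0.39). Limma called 1 of the 5 lower, beside 10.9% of all probes. It was CDH5, the junction cadherin of endothelium, at -0.30 (limma adjusted p 0.0211). CDH5 was read at 3.18 to 3.63 times background in untreated and 1.26 to 1.30 times in treated samples. The summed intensity above background of the 5 markers was 14350 to 20903 in untreated and 13426 to 20881 in rhLRG1 samples. ICAM2 and MCAM were the bright probes of that sum, at 71.9 to 324 times background, while CDH5, ENG and TIE1 lay at 1.26 to 4.35 times. Of 10 fibroblast and mural markers 7 were on the array, 4 above 0. Limma called 1 of the 7 higher, beside 10.8% of all probes. It was FAP, a serine protease of activated fibroblasts, at 0.39 (limma adjusted p 0.0312). By the Z ratio FAP (1.87) and DES (2.36) were called higher, 2 of the 7 beside 4.74% of all probes. DES, at 0.16, lay only 1.18 to 1.77 times above background. COL3A1 (-0.15), THY1 (-0.06) and COL1A1 (-0.05) were the 3 below 0. The summed intensity of the 7 markers was 2749 to 2886 in untreated and 2152 to 2423 in rhLRG1 samples. Of 8 leukocyte markers 4 were on the array and 0 passed, with sums of 3769 to 5271 and 3317 to 5057. No marker was at 0 in any sample. The part of other cell types in these ratios was not tested.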

How the data were processed

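Two-colour arrays of MDA-MB-231 RNA (untreated and rhLRG1, replicates 2 and 3) were analysed. The authors deposited, per spot, scanned intensity, local background with its SD, and a net intensity. The net intensity is foreground minus background, with the treated channel rescaled as a function of brightness. Per the methods genArise was used with default parameters, while R 4.2.2 appears in the submitters' processing notes. No source used here names the program that did the rescaling. The deposited ratio columns (untreated over treated) were not used.

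Here the scanned intensities were corrected by normexp (offset 50), after leaving out 2 spots below their background on replicate 3, and normalized by loess within each array, with the 54 control spots at weight 0. Spots of a probe were averaged, and each array's log2 ratio was tested against 0 with limma 3.58.1 in R 4.3.3, Benjamini-Hochberg adjusted over 1856 probes. The offset draws ratios of dim spots toward 0. Normexp fitted almost no background noise without the 2 spots, so it then acted nearly as subtraction plus the offset. The SE is the moderated one. The methods name a Z-score and a Z ratio threshold of 1.5 in size but give no formula. The usual one was used here: log10 intensities are centred and scaled per channel, each difference of group means is scaled by the SD of these differences, with no p-value. Intensity gives no count, so the number of arrays, 2, limits the precision. The labels describe the replicates as separate cultures.

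The replicate number pairs the samples, which shared an array: across probes, their deviations from the group means correlated at 0.941. The methods state 3 biological replicates and labelling in 2 independent experiments, of which 2 are analysed here. Gene names came from RefSeq tables (GRCh38.p14), with no coordinates taken from them. Accessions named 1701 probes, symbols 60 and older symbols 15, another 5 kept the name in the file, and 75 have no name. The genes and lists were chosen with earlier results of these data known. Named are all 8 genes, and in each list those with a Z ratio beyond 1.5 and the 2 with the largest mean ratio in size. CDH5, FAP, VIM, CD44, EGFR, AXL, ERBB2, PGR, EPCAM, KRT19, HGF, TIE1, CD47 and the rest of the small receptor and ligand lists were added after their values were seen. So were DES, COL3A1, THY1 and COL1A1. No sequences of the probes were used. Alternatives were other background corrections, other normalizations, the net intensities, each replicate or spot left out, no replicate block, a robust variance model, duplicate spots kept apart, a filter on dim probes, Z scores after loess and, added later, both below-background spots kept. The calculations were tested on simulated data.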

Additional observations from a re-analysis of the deposited data

How the results depend on the processing

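Limma called 201 probes higher and 203 lower. These counts were 501 and 620 with median centring, 44 and 1523 with no normalization, which moves the median ratio of all probes to -0.44, and 308 and 314 with duplicate spots kept apart. With the net intensities 315 were called higher, and plain subtraction took the Z ratio's higher calls from 88 to 54. With both below-background spots kept, a setting added after seeing the data, limma called 0 probes higher and 0 lower, and 0 and 0 of the 8 genes. The cause of the other shifts was not tested.

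Without the replicate block, a fit that ignores the pairing on the arrays, 0 probes were higher and 0 lower, 0 of the 8 genes passed in either direction, and 67 probes had an unadjusted p under 0.05. Of the 8 genes limma called 0 higher with no normalization and 1 with the robust variance model. It called 3 lower with median centring, 6 with no normalization, 2 with the net intensities and 3 with duplicate spots kept apart. Z scores on the loess channels called 0 higher. A fit with 1 array has no residual degrees of freedom, so leaving out a replicate gave values only. No mean log2 ratio of the 8 genes turned sign, and the Z ratio of PGF went from -0.026 to 0.097 without replicate 2.

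Signs turned as follows. With no normalization VEGFA was at -0.070, PGF at -0.78, ANGPT2 at -0.55, PDGFA at -0.12, FLT4 at -0.29 and the ligands' median at -0.33. With median centring PGF was at -0.34 and ANGPT2 at -0.11. With the net intensities VEGFA was at -0.23 with a Z ratio of -0.78, THBS2 was at 0.069, and the 1 gene called higher by the Z ratio was ANGPT2, at 2.18. Without a turn of sign, the ligands' median was 0.37 with plain subtraction, 0.11 with median centring and 0.29 with the net intensities. The receptors' median was -0.052 with median centring, -0.49 with no normalization, -0.19 with the net intensities and -0.11 over first spots. Signal over background limits the readings of VEGFA and of the first spot of ANGPT2, which lay within 1.20 times background in the treated channel.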
